A study of Mus musculus with 21 samples.

Results

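The 10 genes described here are listed as neutrophil granule genes, and they were taken by symbol from the 21000 rows of the count table. They form 2 classes, named as in the list and not by where each protein is stored. The 4 primary granule genes are Mpo, Elane, Prtn3 and Ctsg, and the 6 late granule genes are S100a8, S100a9, Ngp, Camp, Ltf and Cd177. The genes were chosen by their normalized levels, as seen in these same 7 groups of libraries, so that their levels and differences are given as a description without a test.

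RNA was sequenced from hematopoietic stem cells (HSCs) of wild-type C57BL/6 mice, sorted as CD150+CD48-Lineage-Sca-1+c-Kit+ bone marrow cells, with 3000 to 3500 cells in a library and 3 libraries in each of 7 groups. Mice aged 10 weeks were given PBS or the antimetabolite 5-fluorouracil (5-FU, 150 mg/kg, intraperitoneally). HSCs were taken at day 6 after PBS once (PBS-1 d6) or 5-FU once (5FU-1 d6), at day 21 after 5-FU once (5FU-1 d21), at day 6 after the third of 3 administrations spaced by 21 days (PBS-3 d6 and 5FU-3 d6), and at day 21 after the third 5-FU (5FU-3 d21). The day of administration was counted, so that day 6 and day 21 were 5 and 20 days later. The last group held HSCs of untreated mice aged 2 years (old fresh). For collection at day 6 after 5-FU, the study's methods left the antibody to Mac-1 out of the lineage cocktail and widened the c-Kit gate to high-to-dim cells. Effects of 5-FU at day 6 and of this change of gate cannot be told apart.

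Neutrophils fill their granules in a fixed order as they mature in the bone marrow. Primary (azurophil) granules are loaded at the promyelocyte stage with myeloperoxidase and serine proteases, and secondary and tertiary granules are loaded later, from the myelocyte stage on, with lactoferrin and antimicrobial peptides. HSCs lie upstream of both steps in the hematopoietic hierarchy. In libraries made from bulk RNA, fewer cells carrying a transcript and less of it in each cell cannot be told apart.

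The libraries held 22184885 to 38649033 counts (median 26962256), and a count of 3, taken as the floor, came to 0.0776 to 0.135 CPM (counts relative to library size). Levels are given as CPM scaled by the trimmed mean of M values (TMM). Of 9 genes listed as neutrophil surface and effector markers, Csf3r (up to 145 CPM), Itgam (49.3), Clec4d (6.18), Cxcr2 (2.12) and Ccl6 (0.704) were above 0 in every library. Csf3r, also listed below under granulocyte receptors, was at 48.1 CPM or more in every library of sorted HSCs. Il1b was at 0 in 5 libraries, Ly6g, the gene of a Gr-1 antigen, in 16, with up to 2.63 CPM, the receptor gene Fpr2 in 18 and Fpr1 in all 21.

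**Figure D1:**
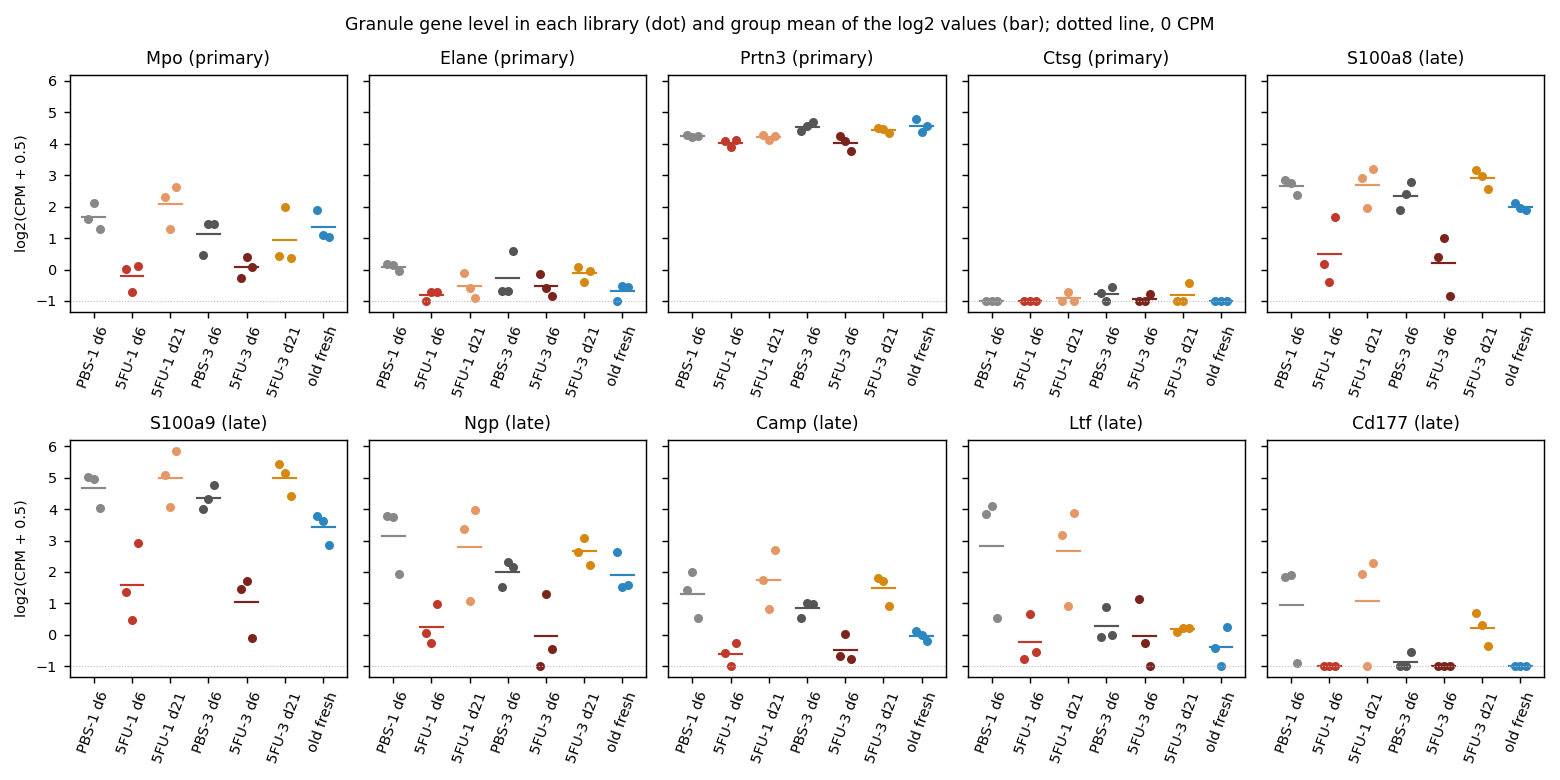
Level of each granule gene as log2(CPM + 0.5) on the y axis in the 7 groups on the x axis, with a dot per library and a bar at the mean of the log2 values (n = 3). Prtn3 lies between 13.1 and 27.0 CPM in every library, whereas S100a9 spans 0.425 to 57.6 CPM and the lowest values of most late granule genes are in the groups at day 6 after 5-FU.

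The upstream sequence of 6 members is printed with the letters TTNNGNAA, a form of the site bound by C/EBP factors that drive granule genes, in capitals where it occurs on either strand. It was found within 250 bases before the RefSeq start of 5 of the 10 members, against 36.8% of 32851 mouse promoters. All 5 were late granule genes (S100a8, S100a9, Ngp, Ltf and Cd177), and the letters were in none of the windows of the 4 primary granule genes or of Camp. The PU.1 letters GAGGAA were in the windows of 7 members, against 23.3% of all promoters. These were all 4 primary granule genes and, of the late ones, S100a8, Ltf and Cd177. The RUNX letters TGTGGT were in the windows of 2 members (Ctsg and S100a9), against 14.0% of all promoters. Differences between the classes in these letters were not tested. These are matches of letters in RefSeq sequences (GRCm38.p6) and not sites of binding. The stretches shown leave out every annotated exon. Prtn3 and Elane are shown as neighbours of the primary class, and the other 4 as late members with the letters.
Prtn3 (chr10:79879494-79879613, + strand): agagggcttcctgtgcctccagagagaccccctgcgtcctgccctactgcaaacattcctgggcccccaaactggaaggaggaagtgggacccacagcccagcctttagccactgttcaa
Elane (chr10:79886127-79886246, + strand): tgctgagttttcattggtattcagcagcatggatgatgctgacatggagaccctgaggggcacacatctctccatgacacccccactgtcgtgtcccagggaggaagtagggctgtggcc
S100a8 (chr3:90668858-90668977, + strand): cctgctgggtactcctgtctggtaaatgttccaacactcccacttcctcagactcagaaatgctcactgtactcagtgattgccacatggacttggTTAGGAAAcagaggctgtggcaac
Ngp (chr9:110419627-110419746, + strand): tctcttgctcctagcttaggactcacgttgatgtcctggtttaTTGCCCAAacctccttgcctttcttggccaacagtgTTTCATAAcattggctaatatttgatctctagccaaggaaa
Ltf (chr9:111019151-111019270, + strand): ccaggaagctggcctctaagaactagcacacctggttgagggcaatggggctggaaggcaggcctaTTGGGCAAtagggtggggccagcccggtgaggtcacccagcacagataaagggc
Cd177 (chr7:24760312-24760431, - strand): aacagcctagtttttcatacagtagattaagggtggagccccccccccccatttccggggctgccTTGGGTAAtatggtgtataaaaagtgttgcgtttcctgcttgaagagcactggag

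Among the primary granule genes, Prtn3, which encodes the serine protease proteinase 3, had the highest CPM per length in the mean of each group, and its level differed little between groups. In the PBS-1 d6 libraries it was at 18.9, 18.1 and 18.6 CPM, and in the 5FU-1 d6 libraries at 16.4, 14.4 and 17.1 CPM. In the PBS-3 d6 libraries it was at 20.5, 23.0 and 25.4 CPM, and in the 5FU-3 d6 libraries at 18.5, 16.4 and 13.1 CPM. All 3 libraries lay below their PBS controls in both comparisons, by a fitted log2 fold change of -0.23 (SE 0.097) after 1 administration and -0.54 (SE 0.15) after the third. The highest of the 21 libraries, from old mice, was 2.05 times the lowest. Prtn3 made up 81.5% to 97.2% of the summed CPM of the primary class in the group means, so that a sum over this class is in effect the level of Prtn3.

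Prtn3 lies on chromosome 10 (GRCm38, 79874476 to 79883174, + strand) 3.07 kb from Elane. In GENCODE, 9.18% of its exonic bases are antisense to Plppr3, whereas the RefSeq models of Prtn3 and Plppr3 are 4708 bases apart. The library kit does not mark strand, so that reads of both genes in the shared bases cannot be told apart. Plppr3, chosen after its values were seen, had 1934 to 5515 counts in a library, and the Prtn3 count was 11.1% to 20.1% of that of Plppr3. Plppr3 fell at day 6 after 5-FU once (log2 fold change -0.55, SE 0.11, adjusted p = 0.016 by the quasi-likelihood test of edgeR) and after the third 5-FU (-0.65, SE 0.11, adjusted p = 0.0103). The levels of Prtn3 and Plppr3 had r = 0.77 and rho = 0.76 over the 21 libraries, which share their groups. Without the 2 libraries farthest from the median of Plppr3, r was 0.64. Deviations of both genes from the group means had r = 0.51 and rho = 0.54, and r = 0.26 without the 2 libraries farthest by Plppr3. The part of these reads in the level of Prtn3 was not tested.

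Mpo, the gene of myeloperoxidase, was at 2.52, 3.81 and 1.97 CPM in the PBS-1 d6 libraries and at 0.504, 0.111 and 0.574 CPM in the 5FU-1 d6 libraries. It was at 0.868, 2.23 and 2.24 CPM in the PBS-3 d6 libraries and at 0.338, 0.828 and 0.567 CPM in the 5FU-3 d6 libraries. Every library at day 6 after 5-FU lay below all of its PBS controls, with log2 fold changes of -2.80 (SE 0.67) and -1.64 (SE 0.65). At day 21 the values were 4.49, 1.93 and 5.65 CPM after 5-FU once and 0.860, 3.47 and 0.787 CPM after the third, and both groups overlapped their controls.

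The other primary granule genes were near the floor. Elane, which encodes neutrophil elastase, had 0 to 28 counts in a library. Its counts were 17, 16 and 11 in PBS-1 d6 and 0, 3 and 3 in 5FU-1 d6, a log2 fold change of -2.82 (SE 0.99), while the counts of 13, 5 and 2 in 5FU-3 d6 overlapped those of 4, 4 and 28 in PBS-3 d6. Ctsg, the gene of cathepsin G, was at 0 in 16 libraries and had at most 6 counts, and no difference was detectable at this depth.

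S100a8 and S100a9, which lie 22.6 kb apart on chromosome 3, encode the subunits of calprotectin, and S100a9 had the highest CPM per length of the late granule genes in the mean of each group. S100a9 was at 32.1, 30.8 and 15.9 CPM in PBS-1 d6 and at 2.06, 0.889 and 7.004 CPM in 5FU-1 d6. After the third administration it was at 15.4, 19.5 and 26.8 CPM in PBS-3 d6 and at 2.28, 2.81 and 0.425 CPM in 5FU-3 d6. The groups did not overlap in either comparison, and the log2 fold changes were -2.99 (SE 0.64) and -3.52 (SE 0.57). At day 21 S100a9 was at 33.3, 16.2 and 57.6 CPM after 5-FU once and at 42.6, 34.8 and 20.9 CPM after the third, again within or above the range of the PBS libraries.

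S100a8 followed the same order at a lower level. It was at 6.63, 6.30 and 4.66 CPM in PBS-1 d6 against 0.630, 0.259 and 2.72 CPM in 5FU-1 d6, and at 3.18, 4.78 and 6.40 CPM in PBS-3 d6 against 0.830, 1.52 and 0.0567 CPM in 5FU-3 d6. The groups did not overlap, with log2 fold changes of -2.29 (SE 0.75) and -2.60 (SE 0.91). Replicate 3 of 5FU-1 d6 was the highest of its group for both subunits, and without it the log2 fold changes after 1 administration were -3.73 for S100a8 and -4.18 for S100a9.

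Ngp (neutrophilic granule protein) and Camp (the cathelicidin antimicrobial peptide) lie on chromosome 9, as does Ltf. Ngp was at 13.2, 12.9 and 3.34 CPM in PBS-1 d6 and at 0.546, 0.333 and 1.49 CPM in 5FU-1 d6. It was at 2.35, 4.44 and 3.95 CPM in PBS-3 d6 and at 0, 1.99 and 0.227 CPM in 5FU-3 d6. The groups did not overlap in either case, with log2 fold changes of -3.63 (SE 0.71) and -2.31 (SE 1.29), the latter -4.92 without replicate 2 of 5FU-3 d6. Camp was at 2.19, 3.47 and 0.942 CPM in PBS-1 d6 and at 0.168, 0 and 0.344 CPM in 5FU-1 d6, with 174 and 13 counts in all. Its log2 fold changes were -3.66 (SE 1.05) after 1 administration and -2.43 (SE 0.86) after the third, the latter -3.63 without replicate 2 of 5FU-3 d6, and its groups did not overlap in either comparison.

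Ltf and Cd177 differed from the other late members in being high in single libraries. Ltf, the gene of lactoferrin, had 372, 446 and 22 counts in PBS-1 d6 (13.8, 16.6 and 0.942 CPM) and 217, 49 and 478 counts in 5FU-1 d21 (8.47, 1.39 and 14.2 CPM). In every other library it was at 1.69 CPM or lower. Its 5FU-1 d6 libraries, at 0.0840, 1.07 and 0.191 CPM, overlapped PBS-1 d6 through replicate 3 of the controls. The log2 fold change was -4.51 (SE 1.18) after 1 administration, and -6.19 without replicate 2 of 5FU-1 d6. After the third it was -0.22 (SE 1.37), a value that moved between -2.24, without replicate 1 of 5FU-3 d6, and 0.48, without replicate 2 of PBS-3 d6.

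Cd177, which encodes a neutrophil surface protein held in secondary granules, had 83, 87 and 1 counts in PBS-1 d6 and 85, 0 and 147 in 5FU-1 d21. It was at 0 in all 3 libraries of 5FU-1 d6, 5FU-3 d6 and old fresh. Against a floor of 3 counts per library, its mean in 5FU-1 d6 was at least 18.1-fold lower than in PBS-1 d6. In 5FU-3 d21 it had 30, 20 and 7 counts, above the 0, 0 and 5 counts of PBS-3 d6 in every library.

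Compared per length of the longest transcript, S100a9 had the highest level of the 10 genes in 4 groups. It was at 50.6 ± 17.3 CPM per kb (SD, n = 3) in PBS-1 d6, at 68.8 ± 40.1 in 5FU-1 d21, at 39.7 ± 11.1 in PBS-3 d6 and at 63.1 ± 21.2 in 5FU-3 d21. Prtn3 was first in both groups at day 6 after 5-FU, with 15.6 ± 1.38 CPM per kb in 5FU-1 d6 and 15.6 ± 2.62 in 5FU-3 d6, against 6.39 ± 6.25 and 3.54 ± 2.41 for S100a9. In old mice Prtn3 (22.9 ± 3.39) and S100a9 (20.4 ± 6.42) did not differ beyond their spread.

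The summed CPM of the 6 late granule genes was 56.7 ± 26.8 (SD, n = 3) in PBS-1 d6 and 5.93 ± 5.06 in 5FU-1 d6, and 31.1 ± 8.45 in PBS-3 d6 and 4.30 ± 3.24 in 5FU-3 d6. S100a8 and S100a9 together made up 61.4% to 81.5% of the late sum in the group means, so that it mostly gives their level. The sum of the primary class without Prtn3 was 3.33 ± 0.994 and 0.472 ± 0.235 in the first pair and 2.29 ± 1.16 and 0.813 ± 0.156 in the second. The ratio of late to primary CPM, with Prtn3 in the primary class, was 2.57 ± 1.16 in PBS-1 d6, 0.348 ± 0.272 in 5FU-1 d6, 1.22 ± 0.167 in PBS-3 d6 and 0.242 ± 0.178 in 5FU-3 d6. Prtn3 makes up most of the divisor of this ratio.

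**Figure D2:**
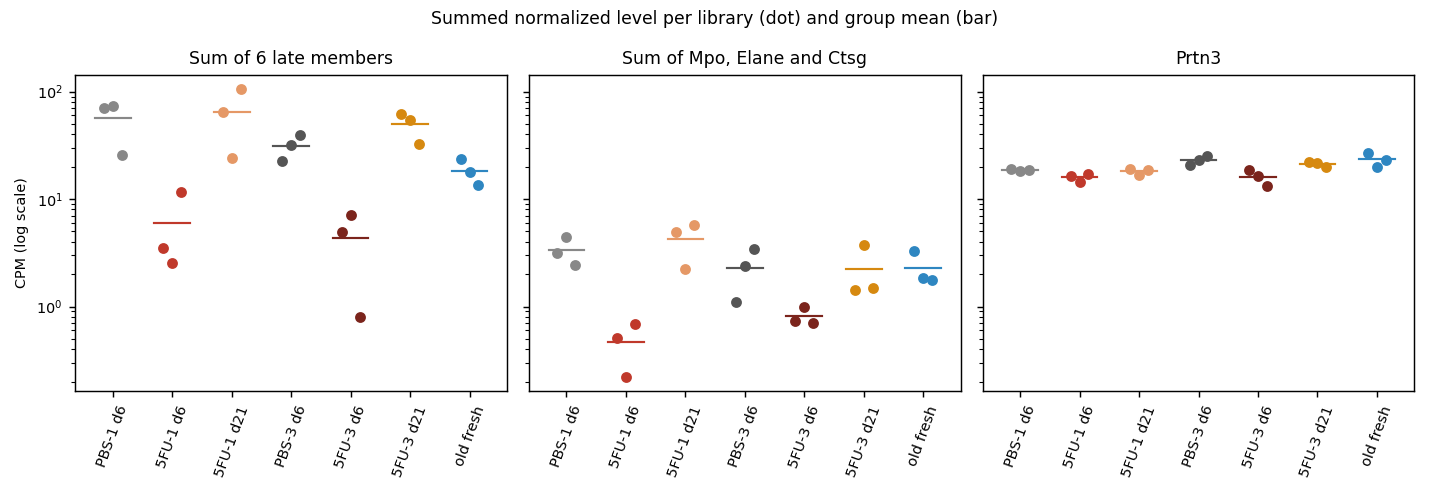
Summed CPM on a log y axis in each library (dots) and as the group mean (bars, n = 3) for the 6 late granule genes, for Mpo, Elane and Ctsg, and for Prtn3, in the 7 groups on the x axis. The late sum has a mean of 56.7 CPM in PBS-1 d6, 5.93 CPM at day 6 after 5-FU once and 64.9 CPM at day 21, while Prtn3 lies between 13.1 and 27.0 CPM.

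In the fit across all genes, 8 of the 10 members passed the filter on low counts after 1 administration, and 5 of them (Mpo, S100a9, Ngp, Camp and Ltf) were past an adjusted p of 0.05, all lower. Among all 12759 genes tested, 10.6% were past it in that direction and 22.2% in either. After the third administration 7 members passed the filter and 2 were past the threshold, Prtn3 and S100a9, both lower, against 8.3% of 12729 genes in that direction and 18.1% in either. The libraries did not overlap, with 5-FU below PBS, for 8 members after 1 administration, including Cd177, which the filter left out and which lay apart in replicate 3 of PBS-1 d6 by a single count, under the floor, and for 6 after the third, against 19.8% and 17.8% of all genes tested. These are the values on which the members were chosen, and the counts are given only as a description. DESeq2 gave 7 members after 1 administration and 5 after the third. Counts over all genes also reached higher values over the 7 alternatives that kept every library, up to 3685 and 3364, against 2827 and 2310 in the main fit. The count of members in edgeR after 1 administration was 1 without replicate 1 of 5FU-1 d6 or replicate 2 of PBS-1 d6, 2 without replicate 1 of PBS-1 d6 and 3 without replicate 3 of 5FU-1 d6. The count after the third was 1 without any single library other than replicate 1 of 5FU-3 d6.

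**Figure D3:**
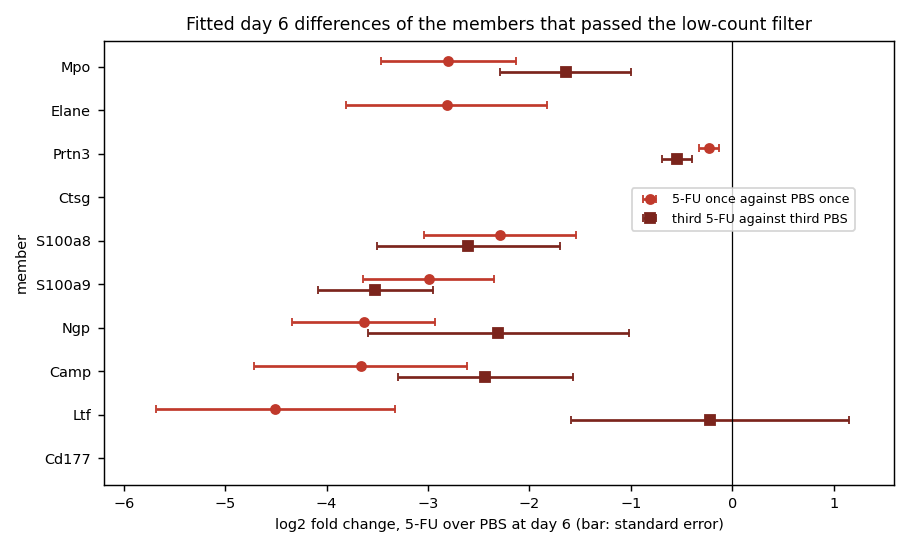
Fitted log2 fold change of 5-FU over PBS at day 6 on the x axis, with its standard error as a bar, for each member on the y axis, after 1 administration (circles) and the third (squares). Members left out by the filter on low counts have no symbol. Values of Prtn3, at -0.23 and -0.54, are nearest to 0 but for Ltf after the third administration (-0.22, SE 1.37).

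The difference between both comparisons, taken as the interaction of 5-FU with the number of administrations, passed the threshold for none of the 8 members tested, against 0.65% of 13227 genes, with 1 member under an unadjusted p of 0.05 in edgeR and 0 members past the adjusted threshold in DESeq2. That member was Ltf, whose interaction term was 4.31 in log2 units (SE 1.88). Its control level was at 10.5 ± 8.36 CPM in PBS-1 d6 and 0.771 ± 0.515 CPM in PBS-3 d6.

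At day 21 the late granule genes were compared with the PBS controls of day 6, which were the only PBS libraries analysed here. Their summed CPM was 64.9 ± 41.1 after 5-FU once, against 56.7 ± 26.8 in PBS-1 d6. After the third it was 49.6 ± 14.97, against 31.1 ± 8.45 in PBS-3 d6. The libraries overlapped in both cases, at 23.9 to 106 against 25.9 to 73.3 CPM and at 32.8 to 61.5 against 22.4 to 39.3 CPM. None of the 9 members tested after 5-FU once and none of the 8 tested after the third was past the threshold in edgeR, and 0 had an unadjusted p under 0.05 in either. DESeq2 also gave 0. Among all genes, 0.221% and 0.0475% were past it. With 3 libraries in a group, a lack of calls does not show that levels were equal. After the third 5-FU the log2 fold changes of S100a8, S100a9, Ngp and Camp lay between 0.57 and 0.85 with SEs of 0.29 to 0.49, and after 5-FU once those of the same genes lay between -0.15 and 0.60 with SEs of 0.36 to 0.76. After 5-FU once 1 member, Elane, lay below its controls by CPM in every library, with 11, 6 and 1 counts against 17, 16 and 11, and after the third 1 member, Cd177, lay above them. These counts are near the shares of all genes that did so, at 10.8% and 11%.

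Old HSCs were compared with PBS-3 d6. The summed late CPM was 18.4 ± 5.03 in old mice and 31.1 ± 8.45 in PBS-3 d6, and the sum of the primary class was 25.7 ± 4.21 and 25.3 ± 3.58. S100a9, at 13.2, 11.8 and 6.83 CPM, and Camp, at 0.584, 0.493 and 0.365 CPM, were below PBS-3 d6 in every old library, against 8.49% of all genes, with log2 fold changes of -0.97 (SE 0.28) and -1.46 (SE 0.62). None of the 7 members tested was past the adjusted threshold in edgeR, 2 had an unadjusted p under 0.05, DESeq2 gave 0, and 0.996% of all genes were past it. Age, handling and the treatment with PBS cannot be told apart in this comparison.

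The PBS groups were compared with each other as well. Prtn3, as 1 of the 10 members, was higher in every PBS-3 d6 library than in PBS-1 d6 (log2 fold change 0.31, SE 0.10), against 9.97% of all genes, whereas Ngp (-1.45, SE 0.52) and Ltf (-3.75, SE 1.01) were lower on average with overlapping libraries. No member tested was past the threshold in edgeR, 3 of 8 had an unadjusted p under 0.05, and DESeq2 gave 1. Among all genes, 0.0156% were past it. The number of administrations, the age at collection and a suffix that only the columns of PBS-1 d6 and 5FU-1 d6 carry cannot be told apart here.

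Within groups, the late granule genes varied together from library to library. For each gene the deviations of log2(CPM + 0.5) from the group means were correlated over the 21 libraries, which are 3 in each group and share their depth between genes. All 15 pairs of late members had a positive r, with a median of 0.71 and a range of 0.31 to 0.96. Cd177 was at 0 in 12 libraries, among them all of 5FU-1 d6, 5FU-3 d6 and old fresh, where it had no deviation to correlate. The subunits S100a8 and S100a9 had r = 0.96 and rho = 0.95 (r = 0.93 without the 2 farthest libraries), and Ngp and Camp r = 0.89 and rho = 0.88 (0.85). The 2 farthest libraries were those farthest from the median of the first gene named, so that extremes of the second gene could stay in. The lowest r was that of S100a8 with Ltf, and Ltf with Cd177 had r = 0.79, rho = 0.57 and r = 0.53 without the 2 farthest libraries. In 5FU-1 d21 all 6 late members were highest in replicate 3 and lowest in replicate 2, and in PBS-1 d6 all 6 were lowest in replicate 3.

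The primary granule genes did not share such a pattern. Their 6 pairs had a median r of 0.043 and a range of -0.42 to 0.45, with 3 of 6 positive, though Ctsg, at 0 in 16 libraries, and Elane give little to correlate. Pairs of 1 primary and 1 late gene had a median r of 0.26 over 24 pairs. The highest of these were of Mpo with Ngp (r = 0.76, rho = 0.80) and Camp (r = 0.72, rho = 0.77), and of Prtn3 with S100a8 (r = 0.69, rho = 0.79) and S100a9 (r = 0.66, rho = 0.73). The mean deviation of the primary class had r = 0.59 and rho = 0.71 with that of the late class, and r = 0.72 without the 2 libraries farthest in the primary mean. The 2 farthest in the late mean, replicate 2 of 5FU-1 d21 and replicate 3 of PBS-1 d6, stayed in. With a pseudocount of 0.1 in place of 0.5 the r over all 21 libraries was 0.32, and with 2 it was 0.69.

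**Figure D4:**
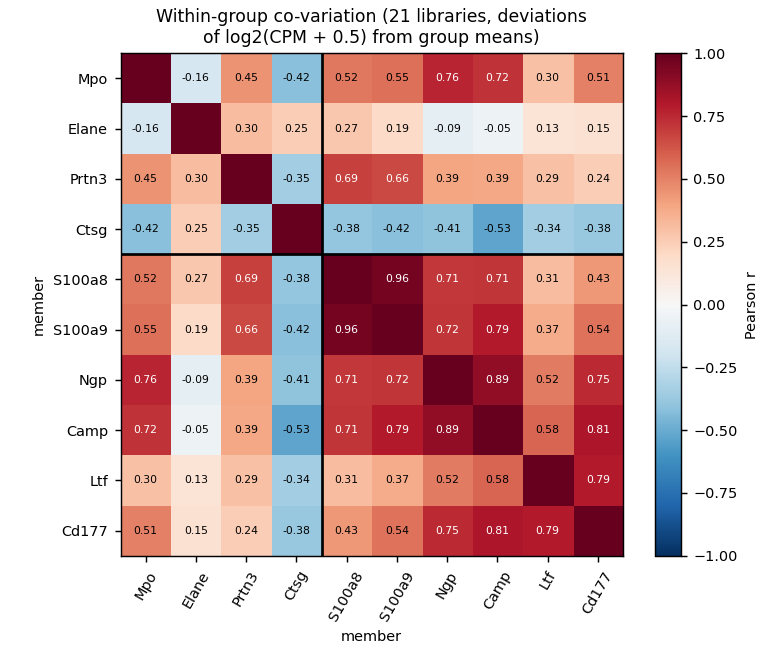
Pearson r of the within-group deviations of log2(CPM + 0.5) for each pair of members on both axes (21 libraries), with black lines between the primary and late classes. The block of 15 late pairs is positive throughout, from 0.31 to 0.96, and the 6 primary pairs range from -0.42 to 0.45.

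Of 12846 genes with a mean of at least 10 counts, Lcn2, which encodes the secondary granule protein lipocalin 2, was most like the late class, both in level (r = 0.94, rho = 0.93 over 21 libraries) and in deviation from the group means (r = 0.93, rho = 0.86). It was followed in level by Cyp2j9 (r = 0.88), Arrdc3 (0.88), Chil3 (0.87) and Sgms1 (0.87), and in deviation by Gemin8 (0.83), E2f5 (0.82), Gnat2 (0.81) and Tes (0.79). The genes most like the primary class in level were Smim5 (0.90), Lyrm9 (0.89), Iqgap2 (0.88), Slc18a2 (0.88) and Igsf10 (0.88), none of them a member of the granule lists. In deviation they were Prkra (0.80), Gnai3 (0.80), Fn1 (0.79), Col4a5 (0.79) and AW549877 (0.77). The most like of so many genes have a high r in part by selection.

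Of 20 other granule genes in the lists, 14 were tested at day 6 after 5-FU once, of which 4 fell and 0 rose, against 10.6% and 11.5% of all genes. Lcn2 was at 3.48, 4.74 and 0.642 CPM in PBS-1 d6 and at 0, 0 and 0.268 CPM in 5FU-1 d6, and fell by 4.97 on the log2 scale (SE 1.34, adjusted p = 0.0376). Chil3, the gene of a chitinase-like protein of neutrophil granules, was at 0.778, 2.50 and 0.770 CPM in PBS-1 d6 and at 0, 0 and 0.115 CPM in 5FU-1 d6 (log2 fold change -4.96, SE 1.23, adjusted p = 0.0286). Both were thus close to 0 in every 5FU-1 d6 library, and their fitted fold changes rest on 7 and 3 counts there.

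Cst7, which encodes the protease inhibitor cystatin F, had 20, 16 and 14 counts in PBS-1 d6 and 1, 0 and 0 in 5FU-1 d6 (log2 fold change -5.18, SE 1.13, adjusted p = 0.0192). Serpinb1a, an inhibitor of elastase and of the other granule proteases, went from 32.3 ± 0.599 to 19.8 ± 2.33 CPM (SD, n = 3; log2 fold change -0.72, SE 0.10, adjusted p = 0.00443 by edgeR). The call of Lcn2 was lost without replicate 1 or 2 of either group (adjusted p up to 0.11), that of Chil3 without any library other than replicate 3 of 5FU-1 d6 (up to 0.104), and that of Cst7 without any other than replicate 1 of 5FU-1 d6 (up to 0.0767). Serpinb1a kept its call without each library. After the third 5-FU, 12 of the 20 were tested, and Cd63, the gene of a tetraspanin of primary granule membranes, fell by 0.56 on the log2 scale (SE 0.077, adjusted p = 0.00544), with no gene past the threshold in the other direction. This count of 1 is near the 8.3% of all genes that fell.

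Genes of granulocyte transcription factors and receptors moved both ways after 5-FU once, with 5 of 12 tested rising and 4 falling, against 22.2% of all genes in either direction. Of these, Spi1 lost its call without replicate 2 or 3 of either group (adjusted p up to 0.0752) and Csf2ra without replicate 2 of 5FU-1 d6 or replicate 2 or 3 of PBS-1 d6 (up to 0.0616). The factor genes Irf8 (log2 fold change 1.95, SE 0.25, adjusted p = 0.00357), Gfi1 (1.25, SE 0.15, adjusted p = 0.00272) and Cebpb (0.92, SE 0.091, adjusted p = 0.0017) rose. Csf3r, the gene of the receptor for granulocyte colony-stimulating factor, fell by 0.90 (SE 0.11, adjusted p = 0.00286), and Csf2rb, the common β subunit of the receptors for GM-CSF, IL-3 and IL-5, rose by 0.88 (SE 0.14, adjusted p = 0.00614). Runx1 and Myb fell as well, with log2 fold changes of -0.68 to -0.55 and -0.53 to -0.44 over 13 alternatives, and kept their calls in each. After the third 5-FU 0 of 12 tested rose and 3 fell, against 8.3% of all genes that fell. Those 3 were Csf3r (-1.03, SE 0.13, adjusted p = 0.00422), Csf2ra (-0.54, SE 0.15, adjusted p = 0.0438) and Runx1 (-0.53, SE 0.072, adjusted p = 0.00535). The call of Csf2ra was lost on leaving out any library of this comparison other than replicate 2 of 5FU-3 d6, with adjusted p up to 0.131. In the day 21, old and PBS comparisons 26 to 28 of the 33 genes in the 3 lists were tested, and 0 were past the threshold in edgeR. Among all genes, 0.0156% to 0.996% were past it. An unadjusted p under 0.05 was reached by 5 to 9 of the listed genes in each comparison. DESeq2 gave 1 to 3 of the 20 granule genes in each of these comparisons.

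**Figure D5:**
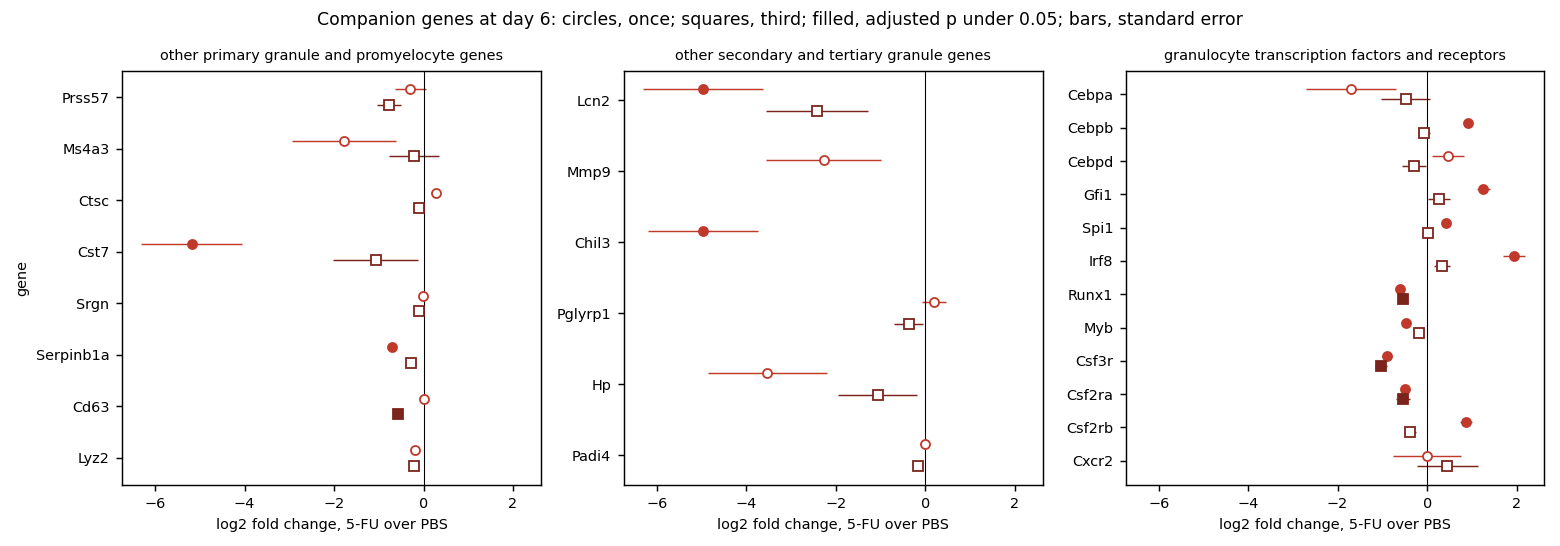
Log2 fold change of 5-FU over PBS at day 6 on the x axis, with standard errors as bars, for genes of the 3 companion lists on the y axis, after 1 administration (circles) and the third (squares), with filled symbols at an adjusted p under 0.05. Lcn2 and Chil3 are far to the left after 1 administration, at -4.97 and -4.96, and Irf8 is farthest to the right at 1.95.

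Kit and Itgam encode the antigens whose staining or gate changed for the collection at day 6 after 5-FU. Kit went from 1075 ± 86.2 CPM in PBS-1 d6 to 597 ± 22.0 in 5FU-1 d6 (SD, n = 3; log2 fold change -0.86, SE 0.072, adjusted p = 0.00111 by edgeR) and fell by 0.44 after the third 5-FU (SE 0.066, adjusted p = 0.00701). Itgam, which encodes the α chain of Mac-1, fell by 1.03 after 5-FU once (SE 0.26, adjusted p = 0.0306) and had a log2 fold change of -0.10 (SE 0.37, adjusted p = 0.868) after the third. Its call after 5-FU once was lost with all libraries in one fit (adjusted p = 0.0929) and without any single library other than replicate 3 of PBS-1 d6 (up to 0.0913). The summed CPM of the 9 listed neutrophil surface and effector markers, most of it from Csf3r and Itgam, was 94.2 to 126 in PBS-1 d6 and 57.1 to 62.1 in 5FU-1 d6, and 135 to 166 in PBS-3 d6 and 69.4 to 96.5 in 5FU-3 d6. Their part in the lower levels of the late granule genes was not tested. Of 8 erythroid markers 6 were tested after 5-FU once, of which the globin genes Hbb-bs (log2 fold change 2.85, SE 0.17, adjusted p = 0.000524 by edgeR) and Hbb-bt (2.69, SE 0.13, adjusted p = 0.000321) rose, Klf1, a factor of erythroid cells, fell by 3.03 (SE 0.47, adjusted p = 0.00621) and 3 were not past the threshold. The median log2 fold change of the list was -0.12, and its summed CPM was 19.1 to 31.0 in PBS-1 d6 and 91.9 to 101 in 5FU-1 d6.

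Ly6g was above 0 in 5 libraries. It had 71, 1 and 14 counts in PBS-1 d6, where Ltf had 372, 446 and 22, and it was at 0 in all libraries at day 6 after 5-FU. In 5FU-1 d21 and in PBS-3 d6 it had 20 counts in replicate 3, the library with the highest late sum of each group, and 0 in the other libraries, among them replicate 1 of 5FU-1 d21, where Ltf had 217 counts and Cd177 85.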

How the data were processed

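RNA-seq was analysed in 21 libraries of sorted mouse HSCs, grouped by their labels. Per the labels and methods, cDNA was made with SMART-Seq v4, libraries with Nextera XT, and reads aligned with TopHat 2.0.13 to mm10 with iGenomes annotation and quantified with Cufflinks 2.2.1. The authors deposited whole-number counts per gene symbol without normalization, and the program that made them is not given in the sources used here. No column was left out.

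Genes were kept by filterByExpr, scaled by TMM and tested within the groups compared with the quasi-likelihood test of edgeR 4.0.16 (R 4.3.3), with Benjamini-Hochberg adjustment over all genes tested (threshold 0.05). Standard errors were derived from the F statistic. The test was first tried on simulated data. Alternatives were DESeq2 1.42.0, RLE or no scaling factors, other filters, pseudocounts of 0.1 and 2, all libraries in one fit, a replicate block and leaving out each library.

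The members and gene lists were chosen with earlier results of these data known. Named genes are the members, up to 5 genes per companion list and comparison with the largest change past the threshold, the 5 genes most like each class, Kit and Itgam. Plppr3, Spi1, Myb and the neutrophil and erythroid markers were named after their values were seen. Positions are from GENCODE M21 (GRCm38). The methods name 3 independent experiments per cell type. Replicates of a group differed by 16.8 to 37.2 times the variance of read sampling. Intervals and floors cover counting error only.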

Additional observations from a re-analysis of the deposited data

Results flagged for a closer look

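For 3 of the 29 genes tested in the companion lists, the change with 5-FU at day 6 was unequal after 1 administration and after the third, by the interaction test of edgeR. Among all 13227 genes tested, 0.65% were past the threshold. Csf2rb had an interaction term of -1.25 in log2 units (SE 0.20, adjusted p = 0.017), with 36.4 ± 4.30 and 67.3 ± 10.4 CPM (SD, n = 3) in PBS-1 d6 and 5FU-1 d6 and 42.8 ± 6.69 and 33.3 ± 1.78 CPM in PBS-3 d6 and 5FU-3 d6. Cebpb had an interaction of -0.98 (SE 0.17, adjusted p = 0.031), with means of 44.7 and 84.9 CPM in the first pair and 61.1 and 59.0 CPM in the second. Cd63 had an interaction of -0.55 (SE 0.093, adjusted p = 0.0242), with means of 431 and 435 CPM in the first pair and 548 and 376 CPM in the second. Over the 19 alternatives the adjusted p reached 0.0569 for Csf2rb, 0.0894 for Cebpb and 0.0694 for Cd63. All 3 calls were lost with all libraries in one fit and without replicate 1 of PBS-1 d6, and those of Cebpb and Cd63 also without replicate 2 of PBS-1 d6, replicate 2 or 3 of 5FU-1 d6 or replicate 3 of PBS-3 d6. Cebpb further lost its call without replicate 2 of PBS-3 d6, and Cd63 without replicate 1 of PBS-3 d6 and with the replicate block.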

How the results depend on the processing

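Over the 742 fitted log2 fold changes of members under the alternatives, 727 moved by less than the spread between replicates and 15 by more, and no member past the threshold changed sign. Requiring at least 10 counts in every library left 1 member and 1 of the other granule genes (companions) past the threshold after 5-FU once, since most granule genes were no longer tested, and gave 23 genes in all at day 21 after the third 5-FU. DESeq2 gave 5 members and 2 companions after the third 5-FU, 715 genes for the interaction, 725 genes and 1 companion at day 21 after 5-FU once, 592 genes and 2 companions at day 21 after the third, 569 genes and 3 companions in old mice, and 547 genes, 1 member and 2 companions between the PBS groups. With all 21 libraries in one fit the counts were 257 genes at day 21 after 5-FU once, 185 genes and 2 companions after the third, 19 genes between the PBS groups, 1 companion in old mice and 0 for the interaction. Without scaling factors 83 and 15 genes were past the threshold at day 21 after 5-FU once and after the third, and with RLE factors 3 after the third. Over the 7 alternatives that kept every library, 2041 to 3685 genes in all were past the threshold after 5-FU once and 1509 to 3364 after the third. The causes were not tested.

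Leaving out 1 library gave 1563 to 1947 genes, 1 to 5 members and 1 to 4 companions after 5-FU once, 1231 to 1582 genes, 1 to 2 members and 1 to 2 companions after the third, 38 to 170 genes and 0 to 1 companion for the interaction, 1 to 32 and 1 to 4 genes at day 21, 20 to 76 in old mice and 0 to 1 between the PBS groups. The log2 fold change of Kit, not past the threshold, changed sign in old mice (-0.051 without old fresh replicate 2, -0.028 without PBS-3 d6 replicate 3, range to 0.0495). That of Itgam changed sign after the third 5-FU (0.14, 0.035 and 0.096 without 5FU-3 d6 replicate 3, PBS-3 d6 replicate 2 and replicate 3, range from -0.41) and between the PBS groups (0.25 and 0.23 without PBS-1 d6 replicate 2 and PBS-3 d6 replicate 1, range from -0.26). With a pseudocount of 0.1 the median r of the primary pairs was -0.047.

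Libraries with the same replicate number did not deviate together (r of -0.049 to 0.027 over 36 values, with some pairs of libraries in more than 1 comparison). The number was therefore not taken as a pairing. With a replicate block the counts were 2 members and 1 companion after 5-FU once, 1509 genes and 1 member after the third, 55 genes and 0 companions for the interaction, 3 and 0 genes at day 21, 30 genes in old mice and 0 between the PBS groups. Depth limits Ctsg, Elane and Cd177, at or under 3 counts in 18, 6 and 13 libraries.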
